A study of Rattus norvegicus with 3 samples.

Results

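Clone-named coding genes, as the term is used here, are gene models that a rat annotation calls protein-coding but lists under a placeholder. The placeholder is LOC with a gene number, or the name of a genomic sequence entry (AABR or AC with digits). The 63 genes described here were selected on the values of the 3 libraries themselves: a placeholder name, a mean normalized read count of at least 50 in the basolateral amygdala (BLA), and a ratio of at least 1.5 between the highest and the lowest library after adding 1 to each. The table held 19113 genes, 16797 of them coding, and the minimum mean left 13386 coding genes. Clone names were carried by 949, and 66 of the 949 passed the ratio. The 3 rows under the names LOC689064 and LOC103694855 were left out by the selection, which gave 33 AABR, 28 LOC and 2 AC members.

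All libraries came from adult male Sprague-Dawley rats, an outbred stock, and the labels name no genetic alteration or drug. Rats under standard housing (SH) were kept in pairs, rats under environmental enrichment (EE) lived together in a group cage fitted with toys during their active cycle and were alone by day, and rats under enrichment removal (ER) had lived under EE and then were housed alone until tissue was taken. Equal amounts of RNA from BLA punches of 10 rats were pooled into 1 library per condition. Each contrast (EEvSH, ERvSH, ERvEE) thus also differs in social housing, the 2 contrasts with SH share its library, and no difference has a replicate check. Ratios are given with exact 95% binomial (Clopper-Pearson) intervals of the read ratio, which cover counting error only and describe 2 libraries, not 2 conditions.

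As background, mammalian genomes hold many copies of highly expressed genes, among them genes for ribosomal proteins, actins, translation factors and chaperones. Many arose when a messenger RNA was copied back into DNA and inserted elsewhere. Such processed copies lack the introns and usually the promoter of the parent gene, differ from it at few bases, and are often annotated first under placeholder names and later as pseudogenes or "like" genes. A short read from a near-identical copy can match more than 1 of them. How reads that matched several places were assigned is not given in the sources used here, so the counts of members with close copies are uncertain.

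The libraries held 29263063 to 30334384 assigned reads, and the value of 1 read lay between 0.996 and 1.03 normalized counts. Marker lists of the tissue gave sums of 112338 to 115798 for neurons, 89341 to 90635 for glutamatergic projection neurons and 10366 to 11035 for genes of the basolateral amygdala and like nuclei. The sums were 18732 to 21803 for inhibitory neurons, 9168 to 10929 for striatum and central amygdala, 92917 to 105285 for oligodendrocytes, 19935 to 20406 for astrocytes and 4370 to 4518 for microglia. Of the endothelial list 1 gene was read, at 1296 to 1324. Of the blood list 2 genes were read, at 636 in SH, 1013 in EE and 932 in ER. Of the choroid plexus list 2 genes were read, at 94.6 in SH, 26.9 in EE and 18.5 in ER, and the defining marker Ttr was at 79.7, 4.14 and 0. The other gene, Kl, was at 14.9, 22.7 and 18.5, lowest in SH. The sums for neurons, basolateral amygdala, inhibitory neurons, striatum, oligodendrocytes, astrocytes, microglia and blood were all highest in EE. The glutamatergic sum was highest in SH and the endothelial gene in ER. The choroid sum was highest in SH through Ttr alone. Within the striatal list Ppp1r1b went the other way, at 3681 in SH, 3194 in EE and 3367 in ER. Its other genes (Adora2a, Drd2, Penk and Prkcd) were highest in EE. The part of these sums in the members' differences was not tested, and in pooled tissue fewer cells of a type and less RNA per cell cannot be told apart.

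The 1.5-fold ratio between highest and lowest library was passed by 6.95% of clone-named coding genes and by 1.20% of the 12437 other coding genes at the same minimum level (149 genes). Both shares were lower at high level, that of the other genes by more. At means of 50 to 100, 20.3% of 153 clone-named and 11.2% of 868 other genes passed, while at means of 1000 or more 4.17% of 264 clone-named and 0.0543% of 5528 other genes did. At 4-fold or more, 22 of the 949 clone-named genes stood beside 2 of the 12437 others. These others were Ptma, which encodes the nuclear protein prothymosin alpha (492 in SH, 1634 in EE, 2183 in ER), and RGD1563072 (270, 2.07 and 369), whose name is itself a placeholder of another kind. These shares describe how the members were chosen and were not tested.

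**Figure D1:**
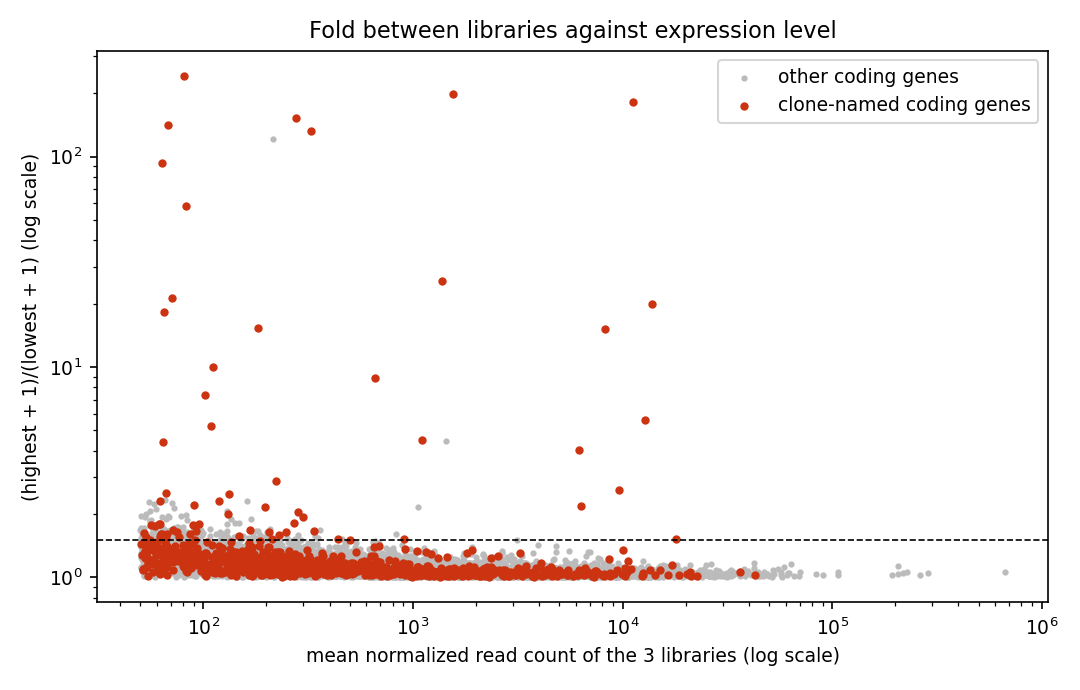
The ratio of highest to lowest library, each plus 1 (vertical, log scale), against the mean normalized read count of the 3 libraries (horizontal, log scale) for the 949 clone-named (red) and 12437 other (gray) coding genes with a mean of at least 50, with a dashed line at 1.5. The 22 clone-named genes at 4-fold or more are spread from low to high means, and only 2 gray points reach that ratio.

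The members ranged from a mean of 52.1 to 17954 normalized counts, with 31 between 50 and 100, 9 between 100 and 200, 12 between 200 and 1000 and 11 at 1000 or more. The ratio was at least 4 for 22 members, between 2 and 4 for 11 and below 2 for 30, and its median was 2.04. It was at least 10 for 15 members and at least 100 for 6. The counting interval of highest against lowest excluded 1 for every one of the 63 members, which were chosen on that same pair of libraries, and its lower end lay above 1.5 for 35. In sum the members took 0.321% of normalized counts in SH, 0.231% in EE and 0.417% in ER. The 11 members with means of at least 1000 held 92.6%, 87.4% and 94.5% of these sums. The other clone-named coding genes took 4.08%, 4.06% and 4.03%, a steadier sum that the selection itself favors.

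**Figure D2:**
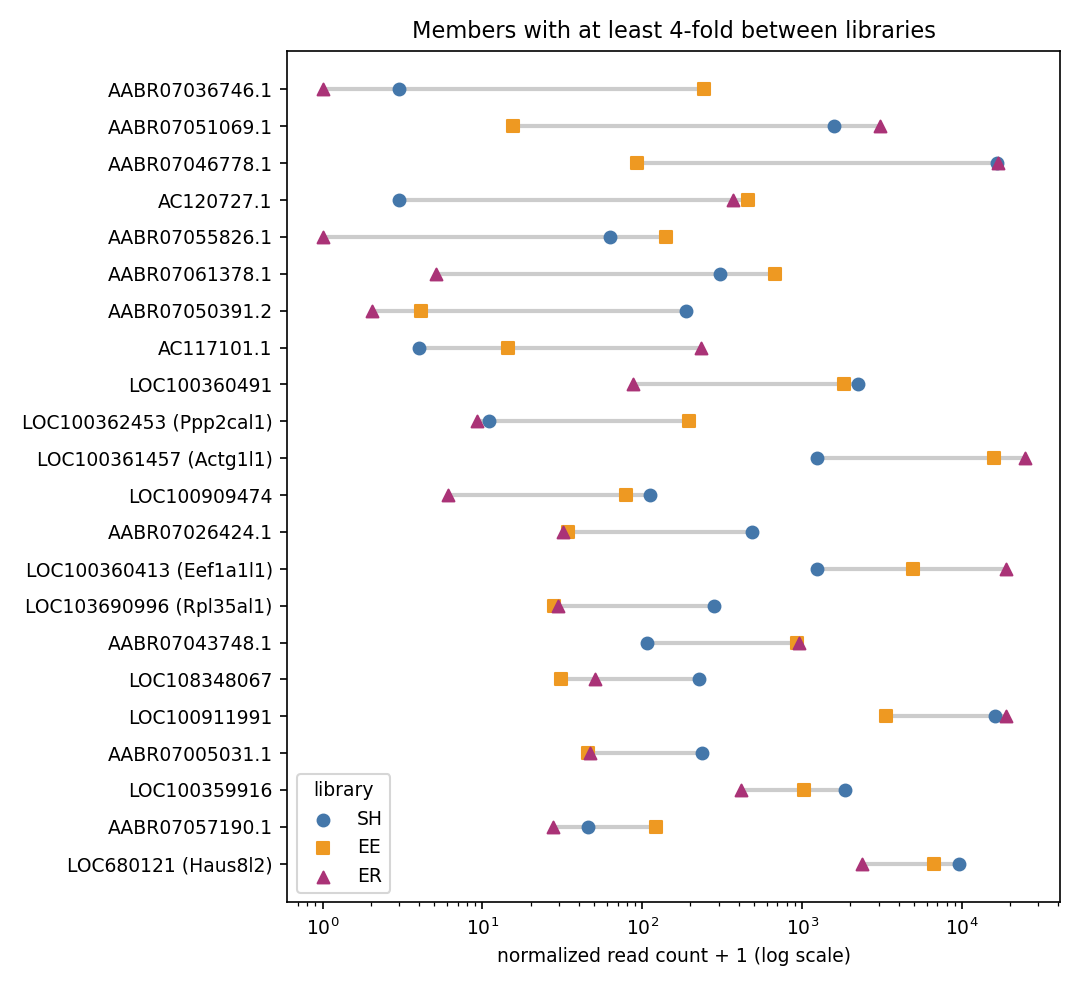
Normalized read count plus 1 (horizontal, log scale) of the 22 members with a ratio of at least 4, with 1 point per library (SH circles, EE squares, ER triangles) and a gray bar from lowest to highest. RefSeq symbols stand in parentheses where they differ from the name in the deposited table. The library that stands apart changes from gene to gene, and for 15 of the 22 genes the bar spans at least 10-fold.

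RefSeq's table for the GRCr8 assembly gave a current entry for 19 of the 63 members, 18 LOC genes by gene number and 1 AABR gene by a synonym. Of the 19, 16 have since been renamed and 14 now carry a symbol that marks a copy of another gene ("like" with a number, or a pseudogene suffix), and 5 are typed as pseudogenes. Among LOC genes found in RefSeq, 13 of 18 members (72.2%) and 58 of 167 clone-named genes below the ratio (34.7%) carried such a copy symbol, and the pseudogene share was 22.2% of members and 22.2% of the others. LOC members were found in RefSeq more often than LOC genes below the ratio (64.3% against 35.7%), so these shares compare unequally covered groups. The 34 AABR and AC members without an entry and the 10 LOC members without one were left unnamed. Below, a copy is a gene so named by RefSeq, since protein sequences were not compared.

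Named copies from the cytoskeleton and from translation included members of high abundance. LOC100361457, is now Actg1l1 in RefSeq, a name that marks it as a copy of Actg1, the gene of cytoplasmic gamma-actin. It was read at 1234 in SH, 15729 in EE and 24595 in ER. SH stood far below both other libraries, 12.7-fold below EE and 19.9-fold below ER (counting interval 18.8 to 21.1). LOC100360413, is now Eef1a1l1, a name after Eef1a1, the elongation factor that carries aminoacyl-tRNA to the ribosome. It was read at 1235 in SH, 4937 in EE and 18694 in ER, with SH lowest and ER 15.1-fold above it (14.3 to 16.0). Both copies had the order SH, EE, ER from low to high.

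The genes these symbols refer to stayed close to level. Actg1 was read at 21858 in SH, 21444 in EE and 21725 in ER, and Eef1a1 at 51190, 51155 and 52145. Actg1l1 held 5.34% of the summed counts of itself and Actg1 in SH, 42.3% in EE and 53.1% in ER. Eef1a1l1 held 2.36%, 8.80% and 26.4% of its sum with Eef1a1. The sum of Actg1l1 and Actg1 still ranged 2.01-fold, from 23092 in SH to 46320 in ER, whereas that of Eef1a1l1 and Eef1a1 ranged 1.35-fold, from 52425 in SH to 70839 in ER.

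The 100 bases before the annotated start of each of these 2 members and of its relative are shown because the pairs share long runs of bases after the start but not before it. All are from RefSeq (GRCr8), read 5′ to 3′ on the gene's strand, with the dinucleotide CG in capitals. Actg1l1 lies at chr3:93433945-93434044 (plus strand), Actg1 at chr10:106120952-106121051 (minus), Eef1a1l1 at chrX:153525280-153525379 (plus) and Eef1a1 at chr8:88225070-88225169 (minus).
Actg1l1: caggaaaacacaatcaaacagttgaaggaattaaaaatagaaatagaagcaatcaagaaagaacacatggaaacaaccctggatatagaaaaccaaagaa
Actg1: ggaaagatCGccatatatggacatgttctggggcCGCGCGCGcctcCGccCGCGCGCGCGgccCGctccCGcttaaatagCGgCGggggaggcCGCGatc
Eef1a1l1: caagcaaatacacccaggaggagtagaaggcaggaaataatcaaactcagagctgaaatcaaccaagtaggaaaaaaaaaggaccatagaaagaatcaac
Eef1a1: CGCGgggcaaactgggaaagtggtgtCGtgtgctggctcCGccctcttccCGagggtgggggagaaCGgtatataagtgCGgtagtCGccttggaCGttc

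The dinucleotide CG, searched as those letters (the motif reads the same on both strands), was present 17 times in the 100 bases shown for Actg1 and 9 times for Eef1a1, and 0 times in either copy. Over the whole 250 upstream bases the counts were 3 for Actg1l1 against 43 for Actg1 and 0 for Eef1a1l1 against 21 for Eef1a1. Across the 33469 RefSeq promoters of that length 92.2% held at least 1, the median was 5 and the quartiles were 2 and 15. Upstream, the longest run of bases that Actg1l1 shared with Actg1 was 6, and that of Eef1a1l1 with Eef1a1 was 7. In windows that add the first 50 transcribed bases, the longest shared runs were 50 and 36. RefSeq windows were found for 10 of the 63 members and for both genes of 5 pairs, so nothing here extends to the members as a set.

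Among copies of ribosomal protein genes the direction differed by family. LOC103690996 (RefSeq Rpl35al1, named as a copy of the large-subunit gene Rpl35a) was read at 278 in SH, 26.9 in EE and 28.7 in ER. SH stood alone, 10.0-fold above EE (6.91 to 16.1). A different row that the deposited table itself names Rpl35al1 was read at 203, 255 and 255, lowest in SH. The 4 other rows of the Rpl35a family summed to 2806 in SH, 3013 in EE and 3043 in ER, so that with the member the 5 rows held 3084, 3040 and 3071, a range of 1.01-fold. The upstream window of this copy held 1 CG against 16 for Rpl35a, and the 2 windows shared a run of 32 bases around the start.

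LOC100362027 (Rpl30l2, named as a copy of the large-subunit gene Rpl30) was read at 373 in SH, 231 in EE and 205 in ER, highest in SH by 1.82-fold over ER (1.53 to 2.17). Rpl30 itself was read at 2575, 2778 and 2789, and the 3 rows of its family summed to 2950, 3011 and 2998. As for Rpl35a, the member was highest in SH and its family sum ranged little (1.02-fold). Rpl30l2 held only 6.85% to 12.7% of its sum with Rpl30, so it could change that sum little.

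The members named as copies of the small-subunit gene Rps20 had another highest library. LOC100362149 (Rps20-ps10) was read at 248 in SH, 403 in EE and 197 in ER. LOC100362684 (Rps20-ps11) was read at 263, 416 and 213, and LOC100359951 (Rps20-ps12) at 251, 420 and 346. All 3 were highest in EE, while Rps20 was read at 1927, 2000 and 2034. A further Rps20 copy that is not a member, LOC100364116, was read at 30.9, 45.5 and 47.2, highest in ER. The 5 rows of the family summed to 2720 in SH, 3284 in EE and 2837 in ER, a range of 1.21-fold. The 3 members belong to 1 family and may share reads, so they do not count as independent observations of EE.

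LOC100365062 (Eif3el1, named as a copy of a gene for a subunit of translation initiation factor 3) was read at 250 in SH, 309 in EE and 107 in ER. ER was lowest, 2.88-fold below EE (2.31 to 3.66). A different row that the deposited table itself names Eif3el1 was read at 1741, 1813 and 1919, and the 2 rows together ranged 1.07-fold. The member was the smaller of the 2 rows and could change that sum little. No row there carries the name Eif3e, so the gene itself was not compared.

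Chaperone-related copies were abundant and differed in their highest library. AABR07011951.1 (Hsc70-ps1) carries a name that marks a pseudogene of Hspa8, which encodes the constitutive chaperone Hsc70. It was read at 7479 in SH, 5889 in EE and 15354 in ER, with ER 2.61-fold above EE (2.53 to 2.69). Hspa8 was read at 19234, 19247 and 19166, a range of 1.00-fold.

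LOC680121 carries the RefSeq symbol Haus8l2, after Haus8, a subunit of the augmin complex that branches spindle microtubules. It was read at 9556 in SH, 6709 in EE and 2369 in ER, with ER 4.03-fold below SH (3.85 to 4.22). Haus8 was read at only 79.7, 95.1 and 95.4. The RefSeq start window of Haus8l2 shared a run of 9 bases with that of Haus8 but of 29 bases with that of Hspa8, within the transcribed part of both. Its lowest library, ER, was the highest of Hsc70-ps1.

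Outside the members, the deposited table typed 2 further Hspa8 copies as pseudogenes. LOC688655 was read at 5304 in SH, 6380 in EE and 19949 in ER, and LOC688932 at 107, 4939 and 88.2. The 4 Hspa8 rows summed to 32123, 36455 and 54557 (1.70-fold), and with LOC680121 added the 5 rows summed to 41679, 43164 and 56926 (1.37-fold). This grouping was chosen after the values were seen.

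Copies of other genes were less abundant. LOC100362453 (Ppp2cal1) is named as a copy of Ppp2ca, the catalytic subunit of protein phosphatase 2A, and was read at 9.96 in SH, 194 in EE and 8.21 in ER. EE stood alone, 21.2-fold above ER (11.8 to 55.7), while Ppp2ca was read at 4309, 4516 and 4469. LOC100359600 (Kpna2l1) is named as a copy of Kpna2, an importin alpha that carries proteins into the nucleus, and was read at 75.7, 132 and 191. Its order SH, EE, ER was that of the actin and elongation factor copies, and Kpna2 was read at 534, 501 and 562. LOC684509 (Ndufa3-ps3), named as a copy of an accessory subunit gene of respiratory complex I, was read at 68.7, 48.6 and 75.9 beside 1264, 1291 and 1385 for Ndufa3. LOC500331 (Clec2d2l3, named after a C-type lectin) was read at 96.6, 61.0 and 109, and Clec2d2 at 11.0, 5.17 and 0.

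Over all 13 member and relative pairs in the table, the members' ratios were 1.55 to 21.2. The 10 relatives with a mean of at least 50 had ratios of 1.00 to 1.32, so every one of these was within 1.5-fold. Clec2d2, below that level, was the exception. Of the 12437 other coding genes at that minimum mean, 1.20% passed 1.5-fold. At means of 1000 or more 0.0543% did, so level values are not particular to these relatives. The summed counts of member and relative stayed within 1.5-fold for 9 pairs and passed it for 4, those of Actg1, Rpl35a, Haus8 and Clec2d2. A level relative keeps the sum within 1.5-fold when the member is a small part of it. The member held 0.183% to 4.13% of the sum for Ppp2ca, 3.63% to 5.20% for Ndufa3 and 6.85% to 12.7% for Rpl30. For the Rps20 pairs, which share 1 Rps20 row, it held 8.83% to 17.4%. Its highest share was 25.3% for Kpna2, 26.4% for Eef1a1 and 44.5% for Hspa8. With all rows of a family added, Rpl35a came within 1.5-fold (1.01) and Hspa8 passed it (1.70). With LOC680121, counted here under Haus8 by its symbol only, the Hspa8 rows stayed within it (1.37). The relatives were taken by RefSeq symbol after values were seen and the members by their ratios, so these ratios are a description only.

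**Figure D3:**
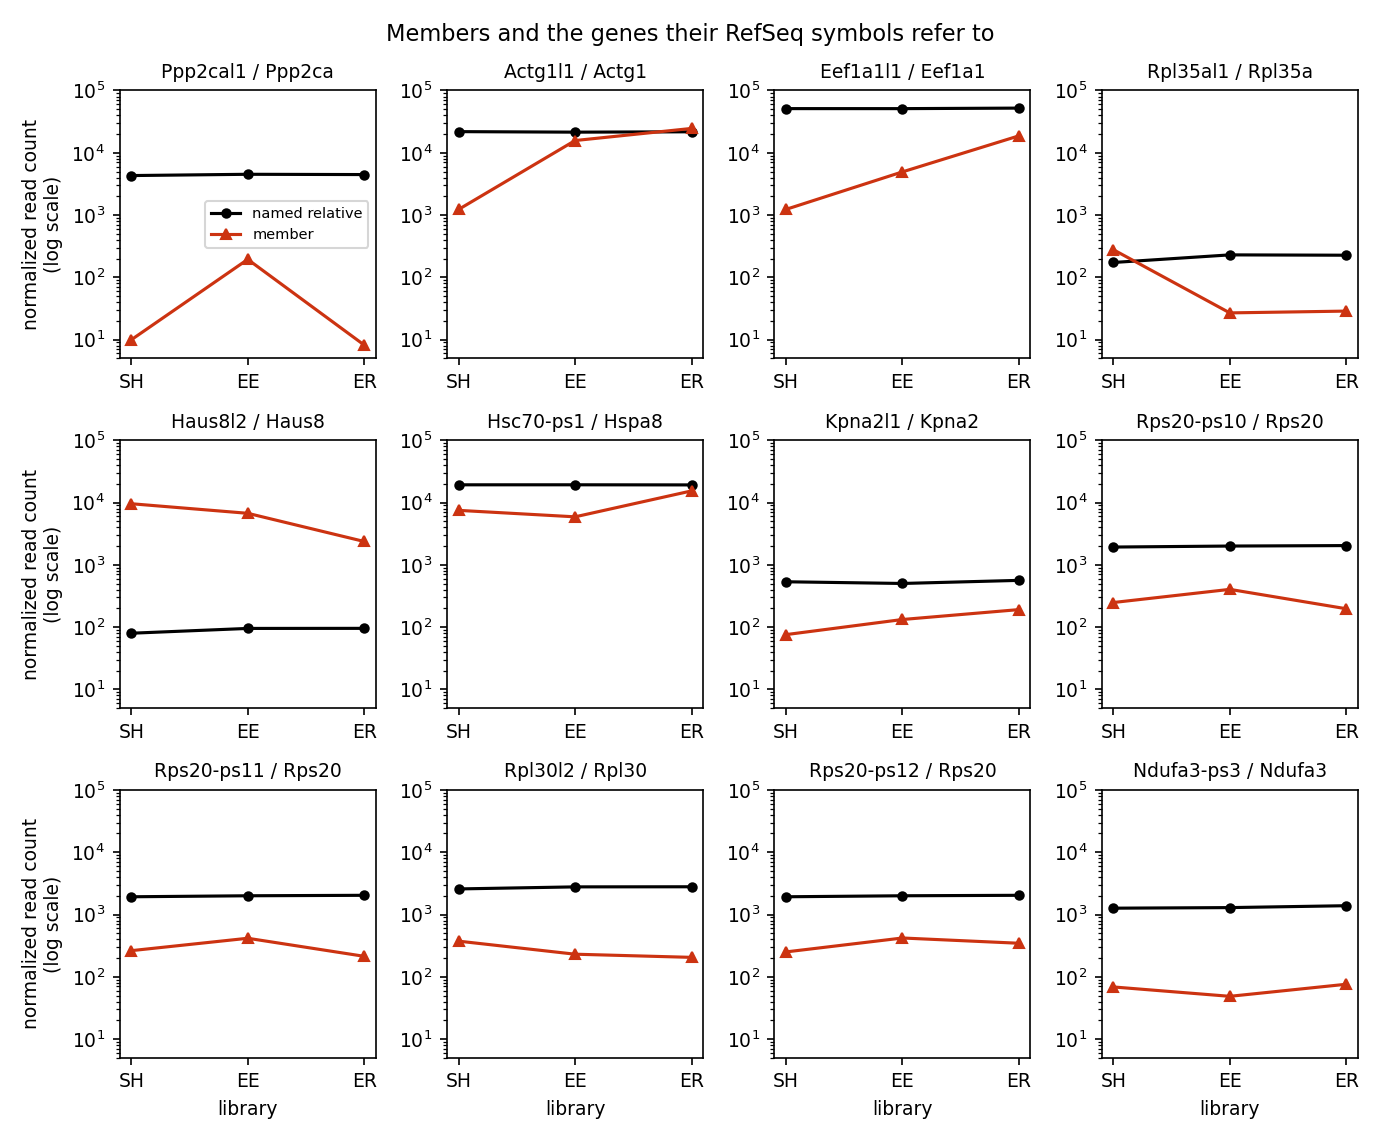
Normalized read count (log scale) in each library for 12 members (red triangles) and the genes that their RefSeq symbols refer to (black circles), in 1 panel per pair, with lines that join the 3 libraries. The black lines are nearly level (1.00 to 1.32-fold) and the red lines differ by 1.55 to 21.2-fold, with Actg1l1 at 15729 in EE and 24595 in ER near the level of Actg1.

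The largest ratios belonged to members with no RefSeq name, and these fell into groups by the library that stood apart. That is the highest or lowest library, whichever lay farther on a log scale from the middle of the 3 values. A library can thus be lowest or highest without standing apart. Their products are not annotated in the sources used here. At 4-fold or more, EE stood apart below for 3. AABR07046778.1 was read at 16598 in SH, 92.0 in EE and 16871 in ER, with ER 181-fold above EE (149 to 228). AABR07051069.1 was read at 1582, 14.5 and 3064 (198-fold, 126 to 388), and LOC100911991 at 16068, 3350 and 18854 (5.63-fold, 5.42 to 5.84). In AABR07046778.1 and LOC100911991 the SH and ER libraries were close to each other, whereas AABR07051069.1 was 1.94-fold higher in ER than in SH (1.82 to 2.06).

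Among members at 4-fold or more, ER stood apart below for 6, LOC680121 being 1 of them. AABR07061378.1 was read at 304 in SH, 674 in EE and 4.10 in ER (132-fold between EE and ER, 63.9 to 605). AABR07055826.1 was read at 61.7, 141 and 0. With a floor of 3 reads in place of the 0 in ER, EE was 45.7-fold higher, and the exact interval of the read ratio starts lower, at 36.7. LOC100909474 was read at 111, 78.6 and 5.13 (18.2-fold, 8.96 to 67.7). In the first 2 of these EE was above SH, and in the last SH was above EE.

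LOC100360491 and LOC100359916, which RefSeq still lists as protein-coding LOC genes, also had ER lowest. The former was read at 2231 in SH, 1828 in EE and 86.2 in ER (25.6-fold between SH and ER, 20.8 to 32.6). The latter was read at 1861, 1020 and 413 (4.49-fold, 4.04 to 5.03). In both, as in LOC680121, the order from high to low was SH, EE, ER, the reverse of Actg1l1 and Eef1a1l1.

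At 4-fold or more, SH stood apart below for 4 members, Actg1l1 and Eef1a1l1 among them. AC120727.1 was read at 1.99 in SH (2 reads), 456 in EE and 370 in ER, a ratio of 153 between EE and SH with a counting interval of 63.0 to 1896. AABR07043748.1 was read at 106, 921 and 947 (8.89-fold, 7.33 to 11.1). In both, EE and ER were close to each other and SH was low.

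SH stood apart above for 5 members at 4-fold or more, LOC103690996 among them. AABR07050391.2 was read at 187 in SH, 3.10 in EE and 1.03 in ER (1 read), a ratio of 92.9 between SH and ER with an interval of 32.4 to 7247. AABR07026424.1 was read at 484, 33.1 and 30.8 (15.3-fold, 10.9 to 23.6). The remaining genes were LOC108348067 at 226, 30.0 and 49.2 (7.33-fold, 5.11 to 11.5) and AABR07005031.1 at 236, 44.5 and 46.2 (5.21-fold, 3.82 to 7.53). For each of these 4, EE and ER were low together.

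EE stood apart above for 3 members at 4-fold or more, Ppp2cal1 among them. AABR07036746.1 was read at 1.99 in SH (2 reads), 241 in EE and 0 in ER. Against the floor of 3 reads EE was 78.3-fold above ER, and the exact interval starts lower, at 63.2. On the plus 1 scale EE was 80.9-fold above SH, with a counting interval of 33.1 to 1005. AABR07057190.1 was read at 44.8, 121 and 26.7 (4.41-fold, 2.95 to 7.23). At the same limit ER alone was high in 1 member, AC117101.1, at 2.99 in SH (3 reads), 13.4 in EE and 232 in ER, a ratio of 58.4 with an interval of 26.2 to 379. No library was the high or the low one throughout these 22 members.

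Below 4-fold, LOC100361259 was read at 40.8 in SH, 52.7 in EE and 105 in ER (2.53-fold, 1.77 to 3.78), with ER high. It is 1 of the 3 LOC genes that RefSeq has not renamed. Of the other unnamed members, 2 were abundant and were picked for this after their values were seen. AABR07000398.1 was read at 9794, 4495 and 4619, 2.18-fold higher in SH than in EE (2.10 to 2.26). AABR07015057.1, the member with the highest mean, was read at 22154, 17142 and 14566 (1.52-fold between SH and ER, 1.49 to 1.55). In both SH was highest. The 26 members not named individually had ratios of 1.52 to 2.31 at means of 52.1 to 230.2. Their highest library was SH for 13, EE for 6 and ER for 7, their lowest was SH for 8, EE for 9 and ER for 9, and the lower end of the counting interval lay above 1.5 for 5 of them. Their smaller ratios and lower levels follow from the choice of the named members. Again they had no common direction.

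Counting all 63 members by the library that stood farther from the middle value, SH was above for 15 and below for 15, EE above for 5 and below for 10, and ER above for 6 and below for 12. The highest library was SH for 26, EE for 18 and ER for 19. The lowest was SH for 18, EE for 20 and ER for 25. Of the 149 other coding genes past the same ratio, SH was highest in 40, EE in 76 and ER in 33, and SH was lowest in 63, EE in 38 and ER in 48. EE was thus the highest library for 51.0% of those genes and for 18 of the 63 members, a difference in counts of genes that was not tested, because genes of 1 library are not replicates.

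**Figure D4:**
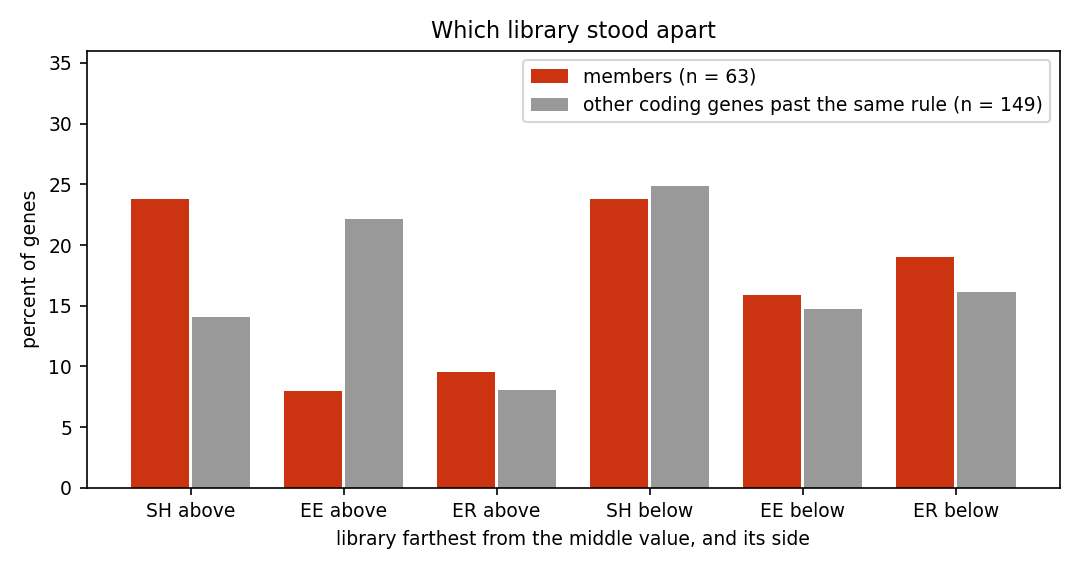
Percent of genes (vertical) by the library that lay farthest, on a log scale, from the middle of the 3 values and by its side (horizontal), for the 63 members (red) and the 149 other coding genes past the same ratio (gray). SH stood apart above or below for 15 members each, and EE above for 5 members against 33 of the other genes.

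For the EEvSH contrast, 22 members were higher by at least 1.5-fold (0.56% of all 13386 coding genes were) and 21 were lower (0.396% of coding genes). For ERvSH, 17 members were higher beside 0.321% of coding genes, and 24 were lower beside 0.388%. For ERvEE, 16 were higher and another 16 lower, where 0.276% and 0.396% of coding genes were. These counts follow from the selection, which used the same 3 values, and any 2 contrasts share a library. The members' median log2 ratio was -0.29 for EEvSH, -0.28 for ERvSH and -0.10 for ERvEE, each beside a median of 0.00 over all coding genes. At 4-fold, 5 members were higher and 8 lower for EEvSH, 5 and 11 for ERvSH, and 4 and 7 for ERvEE.

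Near the selection limit the values on either side were alike. Just inside were LOC100909439 at 116 in SH, 76.5 in EE and 81.0 in ER (ratio 1.503), AABR07050222.1 at 42.8, 65.1 and 58.5 (1.509) and AABR07015066.1 at 713, 1085 and 914 (1.520). Just outside were LOC498555 at 428, 433 and 642 (1.498), LOC103693854 at 41.8, 63.1 and 55.4 (1.496) and LOC103694905 at 224, 151 and 182 (1.481).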

How the data were processed

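Polyadenylated RNA of the BLA was sequenced as 3 pooled libraries made with a strand-keeping kit. The authors aligned reads with HISAT2 and scaled them with DESeq2, as their methods and processing notes state. Genome build, counting tool and versions are not given in those sources used here. The deposited values are a normalized signal, reads divided by a size factor. In each library 100% of values were whole multiples of the value of 1 read within 0.001 of a read, which gave totals of 30334384 (SH), 29263063 (EE) and 29558555 (ER) reads. Depth limits the precision of genes with few reads.

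Groups followed the labels. Ratios between libraries were computed with a pseudocount of 1, which understates the change of genes with few reads. Exact 95% intervals of the read ratio carry no pseudocount and cover counting error only, since reads carried no molecular identifiers. For a library at 0 a ratio against a floor of 3 reads was given, which is not the lower end of the interval. With 1 library per condition, no p-value was given.

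The members and lists were chosen with earlier results of these data known. Values were given for the 25 members with the largest ratios, members with a RefSeq product and a mean of at least 200, and the 3 genes on each side of the limit. Relatives, RefSeq families, Kpna2l1, Ndufa3-ps3, Clec2d2l3, AABR07000398.1 and AABR07015057.1 were chosen after their values were seen. A planned comparison of protein sequences is not analysed here, and RefSeq symbols (GRCr8) took its place. Alternatives were other scalings, pseudocounts, minimum means, ratios and name rules. The selection was also run on simulated reads with counting error only. These held no spread between rats or libraries, so that run says nothing about either. Work was done in Python 3.11.15 (pandas 2.3.3, numpy 2.4.6, matplotlib 3.10.9 and, for intervals, scipy 1.17.1), with R 4.3.3 and edgeR 4.0.16 for scaling factors from the recovered reads, not for a test. The marker lists served to check the tissue, and Cldn5, Pecam1, Hba1, Hba2, Folr1 and Clic6 were not read because they did not match exactly 1 row.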

Additional observations from a re-analysis of the deposited data

How the results depend on the processing

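All 63 members were kept when reads were scaled by library totals, by TMM or by the upper quartile, and when the counting interval had to exclude 1. These scalings lay at 99.7% to 100.2% of the deposited one, so they could hardly move a member or a ratio. The interval used the same highest and lowest libraries as the selection, so neither outcome is an independent check. Of 945 recomputed ratios, 941 stayed within the counting interval, 4 moved outside it and 0 reversed. The number of members was 64 with a pseudocount of 0.5, 60 with 5 and 67 with a wider name rule. It moved to 137 at a minimum mean of 20, 32 at 100, 512 at a mean above 1 and 33 at a ratio of at least 2, by construction of these rules. In that order of the 4 rules, SH was highest for 47, 12, 161 and 11 members and lowest for 43, 11, 171 and 10. EE was highest for 44, 9, 178 and 9 and lowest for 52, 9, 174 and 9. ER was highest for 46, 11, 173 and 13 and lowest for 42, 12, 167 and 14. At a ratio of at least 2, ER thus had the most highest values, where SH had them among the 63 members. The share of clone-named genes past the ratio moved to 12.4%, 4.40%, 31.8% and 3.48%, and that of other coding genes to 3.57%, 0.449%, 11.6% and 0.0965%, and to 0.997% with a pseudocount of 5. The count of 9 pairs whose sum stayed within 1.5-fold was the same under the 3 scalings, which were added for it after seeing the data. The 2 planned results on protein identity were not run. No paired analysis was possible because each condition has 1 library. With 1 pool per condition, neither the spread between rats nor that between libraries is known, and 5 members had a library with 3 reads or fewer.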
